A study of Homo sapiens with 3 samples.

Results

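The genes described here encode the nuclear subunits of the mitochondrial respiratory chain, complexes I to IV, and of the ATP synthase, complex V. They were chosen by their symbols, which begin with NDUF, SDH, UQCR, CYC1, COX or ATP5 followed by a subunit letter or number, and pseudogenes were left out. The rule took 86 symbols, in 89 of the 60123 promoter windows of the table, out of 57997 symbols in all. Complex I had 38 symbols, complex II 4, complex III 10, complex IV 16 and complex V 18, and they lay on 22 chromosomes. Every symbol was found in RefSeq under its current name or an older one. ATP5A1, for example, is now ATP5F1A.

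SW1990 is a human pancreatic ductal adenocarcinoma line, and the labels add SP to its name without spelling it out. Chromatin of these cells was crosslinked with EGS (1.5 mM) and formaldehyde (0.4%) and precipitated with an antibody against PAF1 or against PHF5A. There was 1 library for each antibody, so no spread between replicates exists and no difference below was tested. A library titled input was not analysed here. The cells, the fixation and the cell line are shared by both antibody libraries, and nothing in the labels gives a treatment or a genotype that differs between them.

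PAF1 is a scaffold subunit of the PAF1 complex, which travels with RNA polymerase II and takes part in pausing, elongation and co-transcriptional histone modification. PHF5A is a small PHD-like zinc finger protein of the SF3B splicing complex that has also been found with the PAF1 complex. The respiratory chain passes electrons from NADH (complex I) and succinate (complex II) through ubiquinone to complex III, cytochrome c and complex IV, where oxygen is reduced. Complexes I, III and IV pump protons, and the ATP synthase uses the gradient to make ATP. Most subunits are encoded in the nucleus, on many chromosomes, and a few are encoded in mitochondrial DNA. Known regulators of the nuclear genes include NRF1 and the ETS factor GABP, and many of the promoters hold sites for them.

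Each value is the mean signal over a window that runs 2000 bp upstream to 500 bp downstream of the annotated gene start on hg38. None of the sources used here states its unit. The error after ± is a counting standard error. Its dispersion is an average over windows, estimated from the disagreement of the 2 antibody libraries, so real differences between them enlarge it. It is no bound for a single promoter and holds no replicate error. A signal under about 0.72 is below 3 counts once that dispersion is allowed for. Highest and lowest members of a complex or gene list are given by the mean of both libraries, so the order can differ within 1 library. Values called times a reference are (signal + 0.5) divided by (reference + 0.5). Over all symbols the median promoter had a signal of 4.11 for PAF1 and 4.30 for PHF5A, and the protein-coding symbols, 19064 of them, had medians of 3.64 and 3.91. A level of 2 times the median promoter corresponds to a signal of 8.72 for PAF1 and 9.10 for PHF5A.

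Promoter sequences of RefSeq (GRCh38.p14, 250 bases before to 50 after the RefSeq start) are shown for 3 members with high signal in either library (NDUFA4, SDHD and COX7A2) and for 3 members with low signal in both (ATP5I, ATP5A1 and NDUFB10), so that the letters under the measured windows can be read. Such a sequence lay wholly inside the measured window for 54 of the 86 members (62.8%), and no count of motifs over the members is given for that reason. Capitals mark exact matches, on either strand, to the NRF1 core GCGCATGCG, the ETS site CCGGAAG or the YY1 site AAGATGGCG. Overlapping matches on opposite strands run into each other. The motifs were present in 1.92%, 10.3% and 1.75% of all 35116 RefSeq promoters of this length. The 6 sequences are, in the 5′ to 3′ direction of the gene, as follows.
NDUFA4, chr7:10940104-10940403, minus strand: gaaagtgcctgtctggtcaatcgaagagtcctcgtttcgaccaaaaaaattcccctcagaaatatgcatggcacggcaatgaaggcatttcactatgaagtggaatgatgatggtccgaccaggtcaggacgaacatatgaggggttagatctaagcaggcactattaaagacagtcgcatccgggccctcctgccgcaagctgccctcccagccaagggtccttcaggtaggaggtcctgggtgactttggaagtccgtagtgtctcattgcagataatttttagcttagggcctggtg
SDHD, chr11:112086623-112086922, plus strand: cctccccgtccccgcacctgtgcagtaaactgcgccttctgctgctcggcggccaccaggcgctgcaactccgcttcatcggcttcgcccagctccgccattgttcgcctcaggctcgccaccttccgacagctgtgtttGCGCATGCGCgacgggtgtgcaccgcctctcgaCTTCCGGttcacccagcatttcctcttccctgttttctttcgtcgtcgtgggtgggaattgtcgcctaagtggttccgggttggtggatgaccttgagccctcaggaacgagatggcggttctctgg
COX7A2, chr6:75250249-75250548, minus strand: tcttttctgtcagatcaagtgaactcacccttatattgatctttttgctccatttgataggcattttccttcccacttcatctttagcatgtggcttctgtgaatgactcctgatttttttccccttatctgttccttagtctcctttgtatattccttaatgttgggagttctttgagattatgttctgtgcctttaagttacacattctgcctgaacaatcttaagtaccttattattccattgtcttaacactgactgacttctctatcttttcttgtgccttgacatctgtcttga
ATP5I, chr4:674227-674526, minus strand: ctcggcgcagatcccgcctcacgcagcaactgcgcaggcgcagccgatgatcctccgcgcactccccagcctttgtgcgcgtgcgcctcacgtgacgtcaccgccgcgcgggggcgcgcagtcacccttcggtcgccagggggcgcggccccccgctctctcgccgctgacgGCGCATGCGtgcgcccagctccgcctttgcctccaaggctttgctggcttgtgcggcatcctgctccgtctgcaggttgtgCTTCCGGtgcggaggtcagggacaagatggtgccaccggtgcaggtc
ATP5A1, chr18:46104178-46104477, minus strand: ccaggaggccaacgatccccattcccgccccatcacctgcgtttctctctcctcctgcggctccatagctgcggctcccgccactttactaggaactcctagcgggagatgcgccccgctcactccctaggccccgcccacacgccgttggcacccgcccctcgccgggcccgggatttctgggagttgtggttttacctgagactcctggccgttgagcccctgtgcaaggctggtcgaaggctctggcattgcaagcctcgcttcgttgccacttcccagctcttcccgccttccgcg
NDUFB10, chr16:1959288-1959587, plus strand: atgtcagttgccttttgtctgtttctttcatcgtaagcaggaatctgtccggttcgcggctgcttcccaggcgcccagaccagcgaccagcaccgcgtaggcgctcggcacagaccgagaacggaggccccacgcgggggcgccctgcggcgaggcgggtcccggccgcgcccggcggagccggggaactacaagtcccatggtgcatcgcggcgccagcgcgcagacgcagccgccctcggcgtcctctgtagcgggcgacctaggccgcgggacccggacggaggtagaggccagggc
SDHD, with high signal, held NRF1 and ETS matches, and so did ATP5I, with signal near 0. The other 4 held none of the 3 motifs, which says only that these letters were not in these 300 bases. The share of G and C was 50.7% at NDUFA4, 62.3% at SDHD and 37% at COX7A2, and 71.0% at ATP5I, 65.3% at ATP5A1 and 70.7% at NDUFB10. These 6 were picked by their signal, and their contrast does not describe the members. Other members went the other way: NDUFC1 and COX7B2, also low in both libraries, had 42.7% and 45.3%. ATP5H, with signals of 6.50 and 7.99, had 70.0%. A comparison of base composition over the members is void, because fewer than 80% of them have such a sequence.

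Both antibodies gave most respiratory chain and ATP synthase promoters a signal close to that of the genome's promoters at large. The 86 members ranged between 0.00 and 18.11 in the PAF1 library with a median of 3.42, against a median of 3.64 for protein-coding symbols and 4.11 for all symbols. In the PHF5A library they ranged between 0.33 and 13.02 with a median of 3.80, against 3.91 and 4.30. On the log2 scale the members' median stood 0.24 below the median of all symbols for PAF1 and 0.16 below it for PHF5A, and 0.08 and 0.04 below that of protein-coding symbols. Signals above the all-symbol median were found at 34 members for PAF1 and 31 for PHF5A, beside 49.9% and 49.6% of all symbols. Of the 19064 protein-coding symbols, 8030 and 8321 were above it. The protein-coding median was exceeded by 40 members for PAF1 and 37 for PHF5A.

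High promoters were few. A PAF1 signal of at least 2 times the median promoter was found at 5 members (5.81%), beside 8.11% of all symbols and 5.59% of protein-coding symbols. For PHF5A there were 4 such members (4.65%), beside 6.76% and 5.31%. NDUFC2 and NDUFA4 were the 2 members on both lists, and 7 members were on either. At the low end, 10 members (11.6%) had at most 0.5 times the median promoter for PAF1, beside 15.9% of all symbols and 17.9% of protein-coding symbols, and 12 members (13.95%) for PHF5A, beside 15.5% and 16.0%. The same 7 members were low in both libraries: NDUFA13, ATP5I, NDUFB10, ATP5A1, ATP5D, COX7B2 and NDUFC1. The remaining 64 members lay between these limits in both libraries. Each of these shares is near its background or below it.

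**Figure D1:**
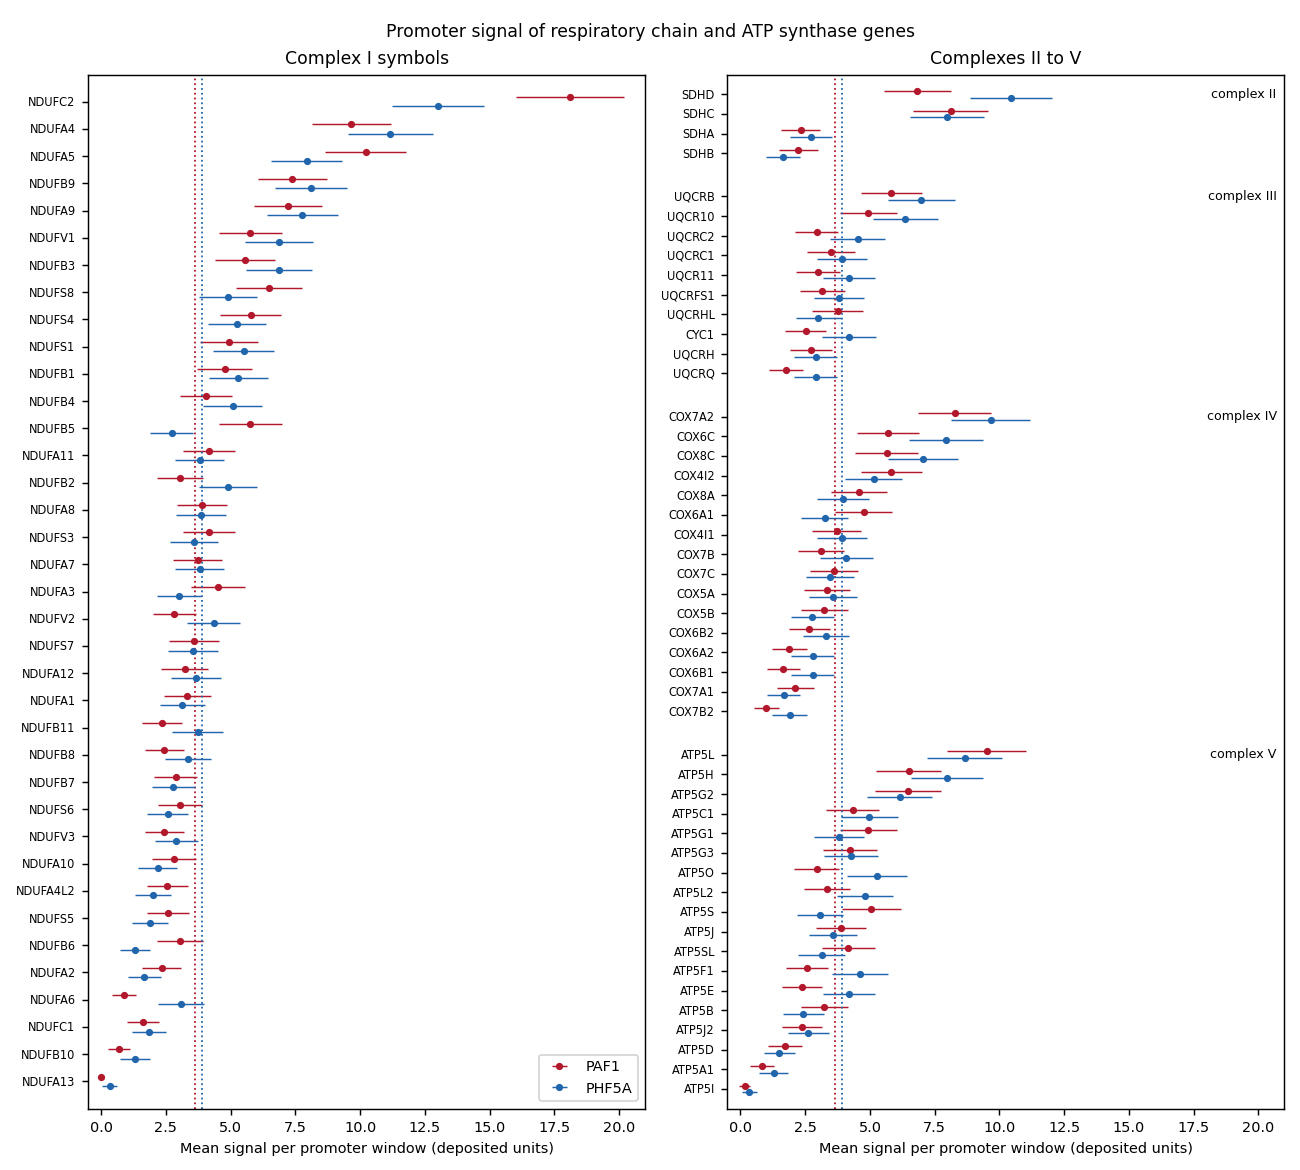
Mean promoter signal (deposited units, horizontal axis) of 85 of the 86 members, complex I on the left and complexes II to V on the right, each block ordered by the mean of both libraries. Points are the single PAF1 (red) and PHF5A (blue) library, bars are counting standard errors (none at a signal of 0), and dotted lines mark the protein-coding medians of 3.64 and 3.91; NDUFC2 stands highest, and NDUFA13 and ATP5I lie near 0.

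Complex I, the NADH dehydrogenase, spanned the widest range from lowest to highest value, but it also had the most symbols. Its 38 symbols had a median of 3.65 for PAF1, practically the protein-coding median, and 3.69 for PHF5A. NDUFC2, a small membrane-arm accessory subunit (chr11:78079719-78082219), was the highest member in both libraries, with 18.11 ± 2.09 for PAF1 and 13.02 ± 1.78 for PHF5A. These were 4.04 and 2.82 times the median promoter. The table gives KCTD14 the identical window and the readthrough gene NDUFC2-KCTD14 a window shifted by 354 bp with 13.47 and 10.06, so the signal cannot be assigned to NDUFC2 alone.

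NDUFA4 (chr7:10939756-10942256) had 9.66 ± 1.52 for PAF1 and 11.17 ± 1.64 for PHF5A, 2.2 and 2.43 times the median promoter. Its product was named for complex I and has since been assigned to complex IV. The hydrophilic accessory subunit NDUFA5 (chr7:123557755-123560255) had 10.22 ± 1.57 and 7.93 ± 1.39. Its PAF1 signal was 2.33 times the median promoter, while its PHF5A signal stood at 1.76 times, within counting error of the 2-fold threshold.

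The lowest of complex I was NDUFA13 (chr19:19513736-19516236), also called GRIM-19, an accessory subunit that is also known as a binder of STAT3. It was listed at 0.00 for PAF1 and at 0.33 ± 0.28 for PHF5A, both below the 3-count limit. TSSK6, which starts 51 bp away on the opposite strand, had 0.88 and 0.94 in an overlapping window. NDUFB10, a membrane-arm subunit (chr16:1957508-1960008), had 0.70 ± 0.42 for PAF1, below the limit, and 1.30 ± 0.58 for PHF5A. NDUFC1 had 1.61 ± 0.62 and 1.84 ± 0.67. Its partner in name, NDUFC2, was thus at the other end of the range in both libraries.

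By role, the core subunits of complex I stood above the accessory ones. The 7 core genes, which carry the flavin, the iron-sulfur clusters and the quinone site, had medians of 4.94 for PAF1 and 4.91 for PHF5A, and the 29 accessory genes 3.23 and 3.35. The lowest core genes were NDUFV2 with 2.83 ± 0.83 for PAF1 and NDUFS7 with 3.55 ± 0.95 for PHF5A. Among the others NDUFV1, which binds FMN and NADH, had 5.76 ± 1.21 and 6.86 ± 1.33, and NDUFS8, an iron-sulfur subunit, had 6.47 ± 1.28 and 4.91 ± 1.12. NDUFS1, the largest subunit, had 4.94 ± 1.12 and 5.50 ± 1.19. All 7 core values lay inside the range of the accessory genes, so the 2 groups overlapped throughout, and the difference of medians was not tested.

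The 4 subunits of complex II, the succinate dehydrogenase that also serves the tricarboxylic acid cycle, fell into 2 levels. SDHD, a membrane anchor (chr11:112084773-112087273 and a second window shifted downstream, averaged), had 6.83 ± 1.28 for PAF1 and 10.45 ± 1.59 for PHF5A, and SDHC, the other anchor, had 8.11 ± 1.44 and 7.98 ± 1.43. SDHA, the flavoprotein, had 2.33 ± 0.75 and 2.73 ± 0.81, and SDHB, the iron-sulfur subunit, had 2.23 ± 0.75 and 1.65 ± 0.65. Both anchors were thus above the median promoter and both catalytic subunits below it, in each library. Windows within 1 Mb differed in the same way, with medians of 6.11 and 6.42 at SDHC and 7.28 and 6.925 at SDHD. They were 2.83 and 2.85 at SDHA and 2.35 and 2.45 at SDHB. Relative to these windows SDHD had 0.94 times for PAF1, below SDHB with 0.96 times, so the 2 levels did not hold there. For PHF5A SDHC had 1.225 and SDHD 1.47 times, against 0.96 at SDHA and 0.73 at SDHB. SDHA has near-identical pseudogenes, and reads that fit several copies could have been placed elsewhere, so its value is uncertain.

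Complex III, the cytochrome bc1 complex, was the most even. Its 10 symbols ranged between 1.77 and 5.83 for PAF1 with a median of 3.08, and between 2.90 and 6.98 for PHF5A with a median of 4.05. UQCRB and UQCR10, both small subunits, were highest, UQCRB with 5.83 ± 1.18 and 6.98 ± 1.30 and UQCR10 with 4.94 ± 1.09 and 6.37 ± 1.24. UQCRC2, a core protein, had 2.94 ± 0.84 and 4.52 ± 1.05. The lowest by the mean of both libraries were UQCRQ with 1.77 ± 0.65 and 2.90 ± 0.84, UQCRH with 2.72 ± 0.81 and 2.90 ± 0.84, and CYC1, which carries the c-type haem, with 2.52 ± 0.80 and 4.2 ± 1.04, the PHF5A value being above the complex median. UQCRH and its retrocopy UQCRHL (3.76 ± 0.98 and 3.01 ± 0.88) are nearly identical in sequence, which makes both values uncertain. The 4 core genes (UQCRC1, UQCRC2, CYC1 and UQCRFS1) had medians of 3.05 for PAF1 and 4.06 for PHF5A, and the 6 small subunits 3.38 and 3.60.

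Complex IV, cytochrome c oxidase, had medians of 3.47 for PAF1 and 3.52 for PHF5A over 16 symbols. COX7A2, the ubiquitous form of a small subunit (chr6:75249823-75252323), was highest with 8.27 ± 1.41 and 9.66 ± 1.53, which was 2.12 times the median promoter for PHF5A. By the mean of both libraries COX6C followed with 5.70 ± 1.21 and 7.93 ± 1.43, and then COX8C, a testis form, with 5.64 ± 1.20 and 7.04 ± 1.34. The lowest were COX7B2, another testis form (chr4:46908735-46911235), with 1.00 ± 0.49 and 1.90 ± 0.68, COX7A1, the heart and muscle form, with 2.11 ± 0.71 and 1.67 ± 0.64, and COX6B1 with 1.66 ± 0.63 and 2.79 ± 0.82.

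Complex V, the ATP synthase, had medians of 3.61 for PAF1 and 4.0 for PHF5A over 18 symbols. ATP5L, subunit g of the membrane part (chr11:118399154-118401654), was highest with 9.50 ± 1.51 and 8.66 ± 1.45, or 2.17 and 1.91 times the median promoter. ATP5H, subunit d of the peripheral stalk, had 6.50 ± 1.25 and 7.99 ± 1.39, and ATP5G2, a gene for the c ring, had 6.47 ± 1.28 and 6.15 ± 1.26. The lowest was ATP5I, subunit e of the membrane part (chr4:673838-676338), with 0.17 ± 0.21 and 0.35 ± 0.30, both below the 3-count limit. ATP5A1, the alpha subunit (chr18:46103834-46106334), had 0.83 ± 0.45 and 1.28 ± 0.56, and ATP5D, the delta subunit, had 1.72 ± 0.64 and 1.50 ± 0.60.

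The F1 part, meaning the catalytic head with its central shaft, differed in level from the membrane part and peripheral stalk within complex V. The 5 genes of the F1 part (ATP5A1, ATP5B, ATP5C1, ATP5D and ATP5E) had medians of 2.38 for PAF1 and 2.42 for PHF5A. The 10 genes of the membrane part and peripheral stalk had 4.06 and 4.44. ATP5B, the catalytic beta subunit, had 3.23 ± 0.91 and 2.42 ± 0.79. ATP5C1, the gamma subunit in the central shaft, was the highest of the F1 part with 4.33 ± 1.02 and 4.97 ± 1.10. The ranges overlapped, since ATP5I was lower than any gene of the F1 part. Of the other 3 symbols of this group, ATP5L2 is a near-copy of ATP5L, and ATP5S and ATP5SL are named after the enzyme without being subunits of its core.

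**Figure D2:**
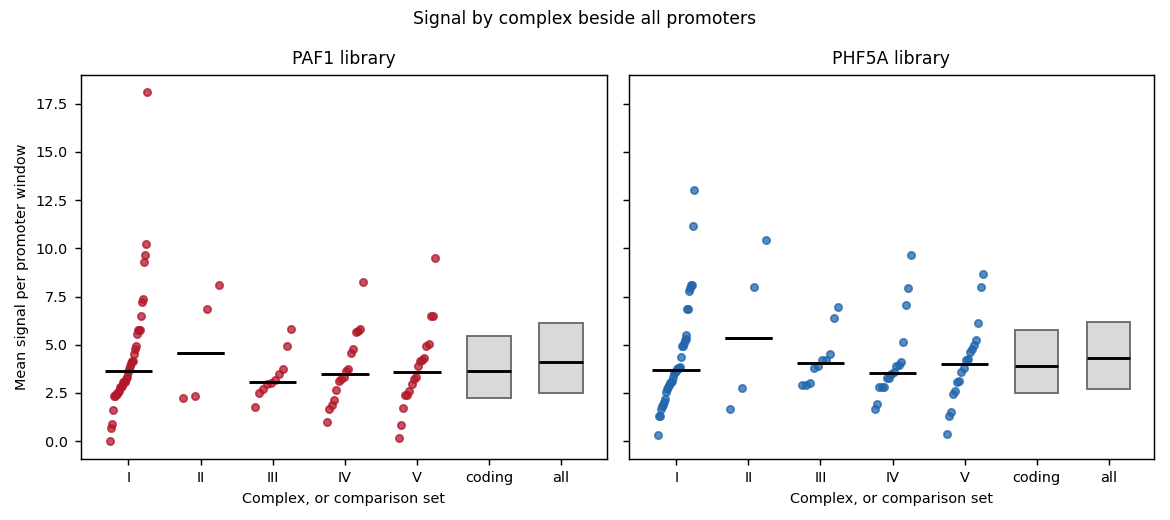
Mean promoter signal (vertical axis, deposited units) of every member by complex, PAF1 library on the left and PHF5A library on the right, beside boxes that span the middle 50% of protein-coding and of all symbols. Black lines are medians; the complex medians lie between 3.08 and 4.58 for PAF1 and between 3.52 and 5.36 for PHF5A, within the boxes, while single genes reach well above and below them.

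Signal was then set against the windows around each member, because neighbouring windows shared a level. The local level is the median of all windows that start within 1 Mb of the member and do not overlap its window (13 to 203 windows, median 65). Across the 86 members Spearman's rho between signal and local level was 0.61 for PAF1 and 0.62 for PHF5A, a description over genes that share the library. The members had a median of 0.92 times their local level for PAF1 and 0.97 times for PHF5A. Signals above the local level were found at 37 members for PAF1 and 40 for PHF5A, beside 49.1% and 49.3% of all symbols and 40.8% and 42.6% of protein-coding symbols. The direction of these medians depends on the windows used: against protein-coding windows alone within 1 Mb the log2 medians were 0.11 for PAF1 and 0.05 for PHF5A, above 0.

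Few members left their neighbourhood far behind. At least 2 times the local level was reached by 3 members for PAF1, beside 6.04% of all symbols, and by 2 for PHF5A, beside 4.98%. ATP5L had 2.77 times for PAF1 and 2.30 times for PHF5A, from 94 windows whose median was 3.11 and 3.48. NDUFC2 had 2.85 and 1.81 times a raised local level of 6.03 and 6.98. NDUFA4 had 2.06 and 2.18 times, from only 13 windows. Next by the mean of the log2 ratios of both libraries came COX7A2 with 1.73 and 1.96 times, and NDUFS7, an iron-sulfur core subunit whose own signal was modest (3.58 ± 0.96 and 3.55 ± 0.95), with 1.93 and 1.61 times a low neighbourhood of 1.61 and 2.01. In single libraries NDUFA5 reached 1.92 times for PAF1 and UQCR11 1.89 times for PHF5A.

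At most 0.5 times the local level was found at 7 members for PAF1, beside 11.0% of all symbols, and at 6 for PHF5A, beside 9.75%, and 4 were the same. NDUFA13 (0.00 and 0.33) lay in a neighbourhood of 3.16 and 2.89, and ATP5I (0.17 and 0.35) in one of 1.97 and 1.98. COX7B2 had 0.31 times its local level for PAF1 and 0.48 times for PHF5A, and NDUFC1 0.44 and 0.47 times. NDUFA2, an accessory subunit with 2.33 ± 0.75 and 1.67 ± 0.64, had 0.58 and 0.40 times. NDUFB10 and ATP5A1, low in absolute terms, lay in low neighbourhoods of about 2, at 0.48 and 0.63 times for NDUFB10 and at 0.53 and 0.71 times for ATP5A1.

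Complex I core against accessory genes, and the F1 part against the membrane part and peripheral stalk, kept their order on this scale. Complex I core genes had medians of 1.31 times the local level for PAF1 and 1.24 times for PHF5A, and accessory genes 0.85 and 0.87 times. Above the local level were 4 and 6 of the 7 core genes (57.1% and 85.7%), and 10 and 9 of the 29 accessory genes (34.5% and 31.0%). The shares were 49.1% and 49.3% for all symbols and 40.8% and 42.6% for protein-coding symbols. The accessory genes thus lay below these shares and the core genes, which are few, above them, and neither difference was tested. In complex V, none of the 5 genes of the F1 part was above its local level in either library. Of the 10 membrane and peripheral stalk genes 4 and 6 were, and all these counts are too small to set against those shares. Complex III had medians of 1.02 and 1.20 times, so that its PAF1 median was below the median promoter and slightly above the local level, and complex IV had 1.02 and 0.96 times, with the same change of side for PAF1.

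**Figure D3:**
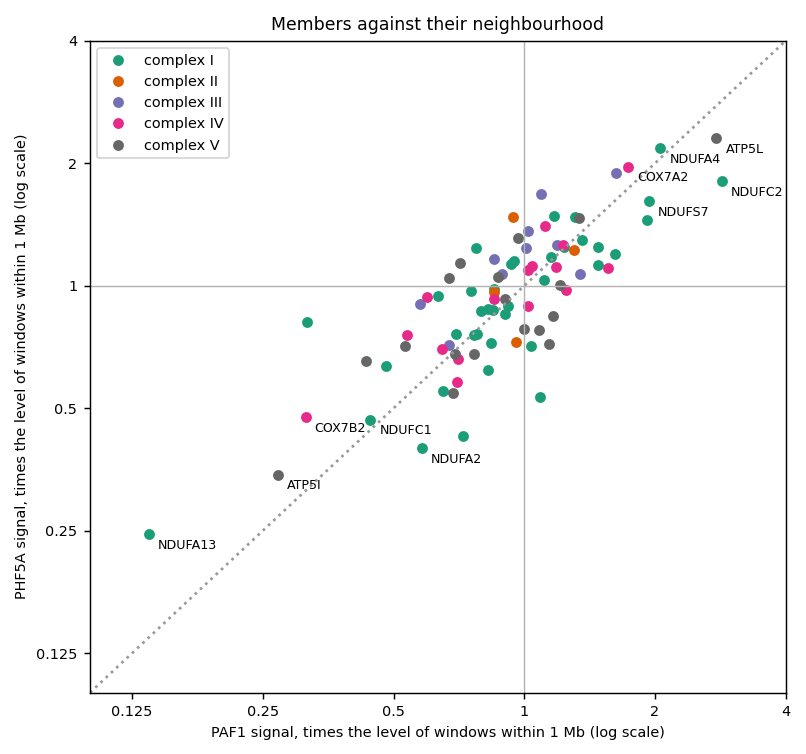
Signal of each member as times the median of windows within 1 Mb, PAF1 horizontally and PHF5A vertically, on log scales, coloured by complex. Grey lines mark a ratio of 1, the dotted line marks equal ratios, and the 5 highest and 5 lowest members are named; 30 members lie above their local level in both libraries and 38 below it in both.

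By chromosome, members lay near the level of all windows in some cases and away from it in others. The 13 members on chromosome 19 had medians of 3.0 for PAF1 and 3.13 for PHF5A, where the 3002 windows of that chromosome had 3.55 and 3.66. The 7 members on chromosome 11 (NDUFC2, ATP5L, SDHD, NDUFS8, NDUFV1, NDUFS3 and COX8A) had medians of 6.47 and 6.86, where all its windows had 4.88 and 5.08. All 7 exceeded the all-symbol median of 4.11 for PAF1 and 5 that of 4.30 for PHF5A, beside 49.9% and 49.6% of all symbols. NDUFS3 (4.16 and 3.57) and COX8A (4.58 and 3.96) lay below the medians of the chromosome's windows in both libraries. The 7 members on chromosome 1 had medians of 2.72 and 3.01, where its windows had 4.22 and 4.41. On chromosome 4 the 3 members (ATP5I, COX7B2 and NDUFC1) had medians of 1.00 and 1.84, where its windows had 3.52 and 3.68; chromosomes 11 and 4 were picked after their values were seen. Some members are neighbours: ATP5D, NDUFS7 and UQCR11 lie within 365 kb on chromosome 19, where local levels were between 1.61 and 1.72 for PAF1. The complex I core genes NDUFV1 and NDUFS8 lie 423.8 kb apart on chromosome 11, with PAF1 local levels of 4.28 and 4.22, so they are not separate neighbourhoods.

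The antibody libraries ranked these promoters in a similar order. Spearman's rho between PAF1 and PHF5A signal was 0.80 over the 86 members, 0.82 over protein-coding symbols and 0.84 over all symbols, values that describe windows sharing the same cells and fixation. With each library set to its own median promoter, the members' median log2 of PAF1 over PHF5A was -0.06, and 48 members had the lower value for PAF1, beside 47.0% of all symbols and 52.1% of protein-coding symbols. At least 2-fold apart were 2 members higher for PAF1, beside 1.87% of all symbols, and 1 higher for PHF5A, beside 2.29%.

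Those 3 were accessory subunits of complex I. NDUFB6 (chr9:32572684-32575184) had 3.05 ± 0.88 for PAF1 and 1.30 ± 0.58 for PHF5A, a log2 difference of 1.04 ± 0.76. NDUFB5 (chr3:179602690-179605190) had 5.76 ± 1.21 and 2.72 ± 0.83, a difference of 1.02 ± 0.54. NDUFA6 (chr22:42090455-42092955) had 0.88 ± 0.47 and 3.07 ± 0.89, a difference of -1.31 ± 0.88. With a pseudocount of 1 only 1 member was past 2-fold. The counting errors were themselves estimated from the differences between these libraries, so the ratio of a difference to its error shows nothing about how alike the libraries are.

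Smaller differences toward PAF1 were found at ATP5S with 0.69 ± 0.53, NDUFA3 with 0.57 ± 0.53 and COX6A1 with 0.55 ± 0.52 on the log2 scale. Toward PHF5A lay ATP5O, the oligomycin sensitivity subunit of the stalk, with -0.69 ± 0.53, ATP5F1, subunit b, with -0.67 ± 0.57, and ATP5E, the epsilon subunit, with -0.65 ± 0.57. ATP5O had 2.94 ± 0.87 for PAF1 and 5.26 ± 1.16 for PHF5A. NDUFA13 and ATP5I were below the limit in both libraries and have no usable ratio. In complex III, 9 of 10 symbols had the lower value for PAF1, UQCRHL being the exception, beside 47.0% of all symbols and 52.1% of protein-coding symbols. Each of these differences was within its counting error, the largest being -0.58 ± 0.58 at CYC1, and the count was not tested.

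**Figure D4:**
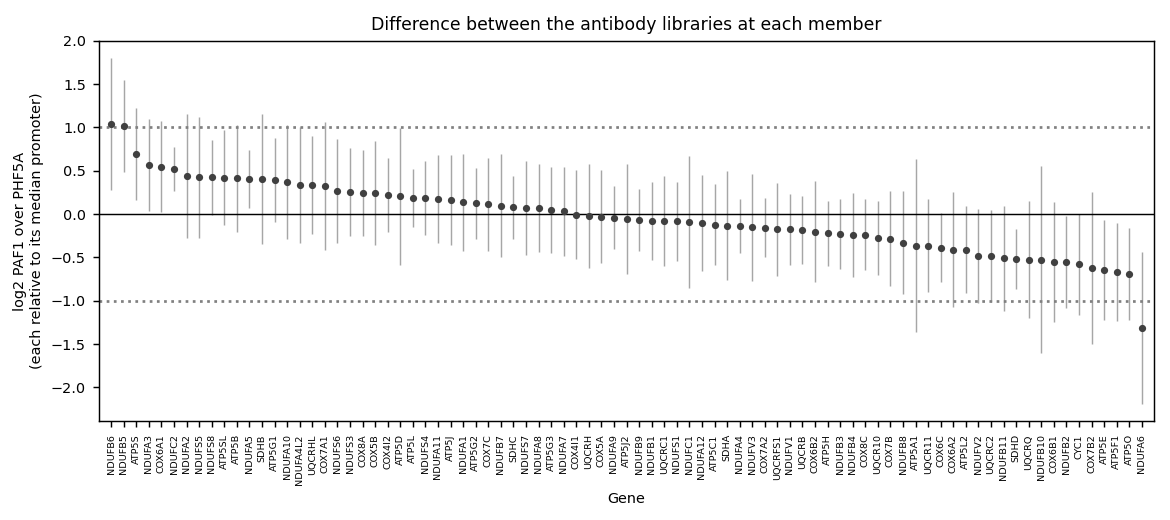
Log2 of PAF1 over PHF5A signal (vertical axis, each library relative to its own median promoter) for the members with a usable ratio, ordered by size along the horizontal axis. Bars are counting standard errors and dotted lines mark 2-fold; NDUFB6 at 1.04, NDUFB5 at 1.02 and NDUFA6 at -1.31 lie past them.

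Several subunits exist in a tissue-restricted form beside a ubiquitous form, and the line is not of muscle, lung or testis origin. Compared were 7 pairs, 6 of them of complex IV. The other, NDUFA4L2 with NDUFA4, is counted with them here although NDUFA4L2 is not set apart by tissue. The restricted form was lower than its partner in 4 of the 7 pairs for PAF1 and in the same number for PHF5A, NDUFA4L2 being among these in both libraries. The median log2 difference, restricted over ubiquitous, was -1.14 for PAF1 and -0.19 for PHF5A. COX7A1, of heart and muscle, had 2.11 and 1.67 for PAF1 and PHF5A, against 8.27 and 9.66 at COX7A2, log2 differences of -1.75 and -2.23. NDUFA4L2, a form induced by hypoxia, had 2.55 ± 0.78 and 2.01 ± 0.70, against 9.66 and 11.17 at NDUFA4, differences of -1.74 and -2.22. The testis form COX7B2 had 1.00 and 1.90, against 3.11 and 4.08 at COX7B, differences of -1.27 and -0.93.

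COX6A2, of heart and muscle, had 1.88 ± 0.67 and 2.79 ± 0.82, against 4.76 ± 1.10 and 3.25 ± 0.91 at COX6A1, so that its PHF5A values were within counting error of each other. The other 3 restricted forms were higher than their partners in both libraries. COX4I2, a lung form of the largest nuclear subunit, had 5.83 ± 1.18 and 5.14 ± 1.12, against 3.72 ± 0.95 and 3.91 ± 0.97 at COX4I1. COX8C had 5.64 and 7.04, against 4.58 ± 1.08 and 3.96 ± 1.01 at COX8A. COX6B2, a testis form, had 2.66 ± 0.80 and 3.29 ± 0.89, against 1.66 and 2.79 at COX6B1. Of the restricted forms 1, COX8C, was above its local level in each library, and of the ubiquitous forms 6 were for PAF1 and 4 for PHF5A, beside 40.8% and 42.6% of protein-coding symbols. With 7 genes on each side these counts describe the pairs and no more. COX4I2 lay in a high neighbourhood of 8.52 and 8.04, so it was high among promoters and low among its neighbours.

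**Figure D5:**
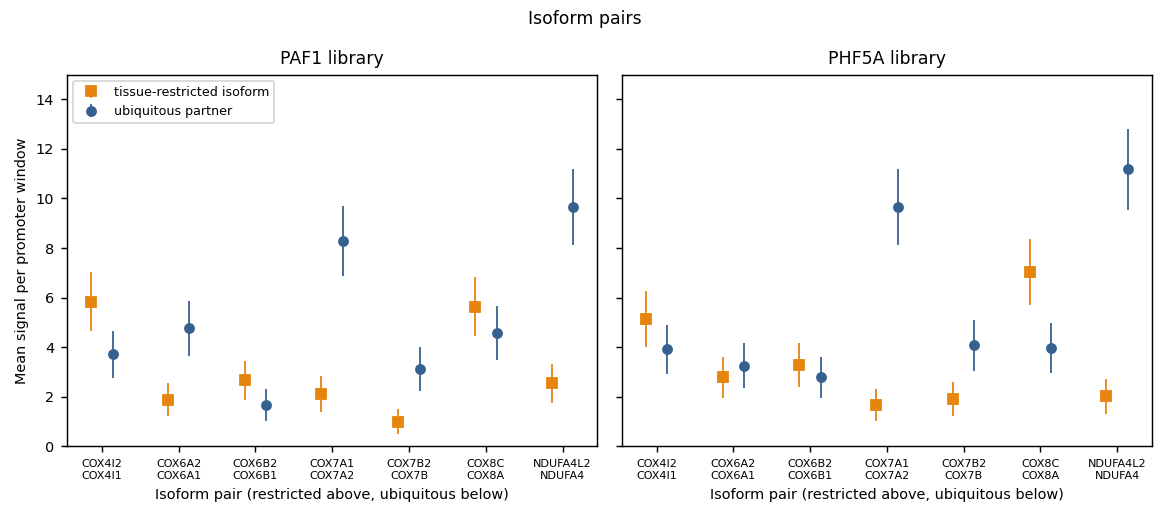
Mean promoter signal (vertical axis, deposited units) of 7 isoform pairs in the PAF1 library (left) and the PHF5A library (right), the tissue-restricted form as a square left of its ubiquitous partner, with counting standard errors. The restricted form is lower in 4 of 7 pairs in each library, with gaps wider than the bars at COX7A1 and NDUFA4L2. NDUFA4L2, a form induced by hypoxia, is drawn with the tissue-restricted forms.

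Some of these windows overlap that of another gene. The windows of 50 members (58.1%) overlapped that of another symbol, and 33 members overlapped the window of an opposite-strand protein-coding gene. Such an overlap need not be a shared promoter, since MAGT1, for example, starts 3845 bp from COX7B. The share of overlaps over all symbols was not computed, so these counts do not set the members apart. In 32 cases the partner started within 500 bp on the opposite strand, so its window covered about the first 2000 bp of the member's gene. The partner was protein-coding in 22 of these pairs. The member had the higher PAF1 signal in 11 of these pairs and the higher PHF5A signal in 14, and the median log2 difference, member over partner, was -0.06 for PAF1 and -0.07 for PHF5A. Past 2-fold for PAF1 were NDUFA4, with 9.66 against 2.66 at RP5-855F16.1, and, in the other direction, NDUFA6, with 0.88 against 5.0 at NDUFA6-AS1, and NDUFA13, whose partner TSSK6 was just above the count limit. For PHF5A, NDUFB5 had 2.72 against 6.09 at MRPL47, a mitochondrial ribosomal protein gene, while its PAF1 value of 5.76 stood beside 7.05. At NDUFA6 the low PAF1 value was thus not shared by the antisense window.

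Pseudogene copies of these genes are numerous, and their windows give a comparison with sequence-related loci that lack the parent's promoter. There were 135 pseudogene symbols named after 38 of the members. Their 38 parents had medians of 3.67 for PAF1 and 4.0 for PHF5A, against 4.50 and 4.75 at the copies, and 4.55 and 4.58 at the 10056 symbols that RefSeq marks as pseudogenes. Copies exceeded their own parent in 65 cases for PAF1 (48.1%) and 63 for PHF5A (46.7%). NDUFA5 had 10.22 and 7.93, against medians of 4.12 and 4.63 at its 12 copies, none of them above it. NDUFA5P4, a copy on chromosome 9 with a window of its own, was listed at the same 10.22 and 7.93 as NDUFA5. COX6C had 5.70 and 7.93, against 3.50 and 4.13 at 17 copies. COX6B1 was the reverse, with 1.66 and 2.79 against 5.61 and 5.47 at 7 copies, all of them above it. NDUFS5 had 2.58 and 1.89, against 6.01 and 5.69 at its 6 copies, again all above it. Reads from recent copies and parents cannot be fully told apart, and how they were placed was not tested.

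Other genes of mitochondrial energy metabolism had similar levels. The 44 assembly factors of the complexes had medians of 3.97 for PAF1 and 4.10 for PHF5A. PET100 (11.33 ± 1.65 and 13.30 ± 1.79), which assists complex IV assembly, and UQCC1 (11.27 ± 1.65 and 9.61 ± 1.52), which assists complex III, were highest by the mean of both libraries, and for PHF5A alone ACAD9 (11.36) exceeded UQCC1, while SDHAF1 (0.66 and 1.17) and PET117 (0.72 and 1.06) were lowest. The 19 regulators of mitochondrial transcription and biogenesis had medians of 3.38 and 3.52. The elongation factor TEFM (10.35 and 11.77) and the polymerase subunit POLG2 (6.11 and 8.43) were highest, and ESRRA (1.61 and 2.29) and POLG (0.88 and 1.84) were lowest by the same mean, with PPARGC1B (1.33) and MTERF2 (1.55) below ESRRA for PAF1 alone. NRF1 itself had 5.38 and 3.40.

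The 14 tricarboxylic acid cycle enzymes had medians of 4.16 for PAF1 and 4.25 for PHF5A. DLST (8.05 and 10.00) was highest, and SUCLG2 (1.55 and 1.90) and IDH3G (0.77 and 1.28) were lowest. The 23 glycolytic enzymes had medians of 3.16 and 4.08, with PFKM (8.66 and 9.89) and ENO2 (9.05 and 8.81) highest and ENO1 (0.94 and 2.57) and PKM (1.76 and 1.18) lowest. The respiratory chain and ATP synthase median of 3.42 and 3.80 lay inside the span of these lists for PAF1, between 3.16 and 4.16, and likewise for PHF5A, between 3.52 and 4.25. Within each list, as among the subunits, single promoters differed far more than the medians did, as medians over many genes vary less than single values in any case.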

How the data were processed

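The deposited table gives 1 signal per promoter window and antibody, the authors' mean over the window. No source used here states its normalization, and the deposited sheet name points to a relative scale. The PAF1 values behave as means of whole numbers over 150 bp bins, within 0.01 for 100% of windows, and the PHF5A values do so after division by 1.006. Bowtie2 2.2.3, Trim Galore, Picard, deepTools, bedtools and hg38 are named in the submitters' processing notes, without settings. Bin sums totalled 4810548 for PAF1 and 4891421 for PHF5A, and a bin sum is not a number of reads. The library titled SW1990_SP_PD2 was taken as PAF1 (PD2 is another name of it) and SW1990_SP_Pkf5a as PHF5A.

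Windows of a symbol were averaged (3 members had several), and log2(signal + 0.5) was used, with Python 3.11.15, pandas 2.3.3 and NumPy 2.4.6. The dispersion of 4.33 behind the counting errors came from the split between the libraries over 50205 non-overlapping windows. These errors cover counting only. The calculation was tested on simulated data. Names and biotypes came from RefSeq by symbol or synonym on the same chromosome. The members, gene lists, roles and isoform pairs were chosen with earlier results of these data known. Full values are printed for the 3 highest and 3 lowest members of each complex, those past 2 times the median promoter, the largest library differences, the extremes against the local level, the isoform pairs, and 2 highest and 2 lowest genes of each list. Values of 1 member and of 1 listed gene that this rule names are not reported here. Highest and lowest genes of a complex or list are by the mean of both libraries. With 1 library per antibody, no test was made. Alternatives were other pseudocounts, references, thresholds, local spans, and sets of members. Replicate error, the fraction of signal that is background, and gene expression are unknown here.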

Additional observations from a re-analysis of the deposited data

How the results depend on the processing

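Alternative values numbered 226, for 33 results under 16 settings. Of these, 188 stayed within the typical counting error of a median or within 1.5 times a count, and the others moved further. That counting error leaves out the spread between genes. In all 16 log2 medians changed sign, and 3 of these moved by less than that error: for PAF1 complex II was 0.14 with the protein-coding median and the tricarboxylic acid cycle -0.022 without symbols listed at 0, and for PHF5A complex III was 0.044 with the protein-coding median. Taking the protein-coding median as reference shifts every log2 value up, by 0.16 for PAF1 and 0.12 for PHF5A. Members then had medians of -0.081 for PAF1 and -0.036 for PHF5A. Complex I, III, IV and V had 0.003275, -0.21, -0.061 and -0.015 for PAF1, and complexes I, IV and V -0.074, -0.14 and 0.026 for PHF5A. In the same setting assembly factors had 0.11 and 0.059, the tricarboxylic acid cycle 0.17 and 0.10, glycolysis -0.18 and 0.055, regulators -0.094 and -0.13 for PAF1 and PHF5A, and 6 members had at most 0.5 times the PAF1 median. Divided by the local level, the log2 medians of complexes III and IV were 0.022 and 0.028 for PAF1, those of complexes III, IV and V 0.26, -0.066 and -0.30 for PHF5A, assembly factors had 0.0013 for PHF5A, and for PAF1 glycolysis had -0.19 and regulators -0.42. With protein-coding windows alone as neighbours, the members' log2 medians against the local level were 0.11 for PAF1 and 0.046 for PHF5A. Without chromosome 19, chosen after seeing the data, that of PHF5A was 0.0022, the PAF1 median against all symbols -0.17 and the PHF5A median of complex IV -0.12. A threshold of 1.5 times gave 13 high members for PAF1 and 16 for PHF5A, and 22 low members for PAF1. A pseudocount of 1 gave 6 low members for PAF1 and 7 for PHF5A, and left 1 member past 2-fold between the libraries, as did leaving the libraries uncentred. The cause of these changes was not tested. No paired analysis was possible because each antibody had 1 library. A protein-coding reference cannot change the isoform pairs or the local ratios and gave no value there. Depth limits single promoters: the median counting standard error of a member was 0.91 for PAF1 and 0.96 for PHF5A, against medians of 3.42 and 3.80.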
